A study of Mus musculus with 9 samples.

Results

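The respiratory chain genes of the cell nucleus were followed in regenerating mouse liver. They were taken by name, as protein-coding genes of the deposited table whose symbol begins with *Nduf*, *Uqcr*, *Cox4* to *Cox8* or *Atp5*, together with *Sdha*, *Sdhb*, *Sdhc* and *Sdhd*. The rule gave 92 of the 43346 genes listed, on 19 chromosomes: 45 named for complex I, 4 for complex II, 8 for complex III, 18 for complex IV and 17 for complex V. Of these, 87 passed the expression filter and were tested. The 5 that did not, *Cox4i2*, *Cox6a2*, *Cox7b2*, *Cox8b* and *Cox8c*, all belong to complex IV. Symbols are those of the table, and names are not always roles: *Ndufa4* is now known as a subunit of complex IV, the *Ndufaf* genes encode assembly factors rather than subunits, and *Atp5sl* (now *Dmac2*) acts in the assembly of complex I.

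Whole liver of male C57/BL6 mice (C57BL/6J in the methods) aged 12 weeks was profiled by bulk RNA-Seq in 3 groups of 3 livers. The baseline was the resection specimen of vehicle-treated mice, taken at 70% partial hepatectomy (0 h), and the other groups were the liver remnants of vehicle-treated and of NSC-treated mice 40 h after that surgery. NSC-87877 (NSC) inhibits the phosphatases SHP1 and SHP2. Mice received 15 mg/kg of it per day by i.p. injection, split into doses of 7.5 mg/kg, beginning 12 h before surgery by the sample records and 1 day before by the methods, and vehicle was normal saline. Specimens resected from mice on NSC were not analysed here. Both groups at 40 h were therefore set against the same 3 baselines, and a change with NSC from baseline holds the effect of surgery and drug together. The sources do not say whether a remnant and a specimen with the same number came from 1 mouse, and p-values measure the spread between these livers only.

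The respiratory chain sits in the inner mitochondrial membrane. Complex I takes electrons from NADH and complex II, which is also an enzyme of the TCA cycle, takes them from succinate. Ubiquinone carries them to complex III, cytochrome c to complex IV, where oxygen is reduced, and complex V (ATP synthase) uses the proton gradient to make ATP. Hepatocytes are rich in mitochondria and rely on this chain to fuel glucose, urea and lipid metabolism. Most subunits are encoded in the nucleus, and a few of complexes I, III, IV and V in mitochondrial DNA. The 37 mitochondrial genes of the table are listed at 0 in every library, so the mitochondrially encoded subunits could not be followed.

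Promoters of nuclear respiratory chain genes are known for binding sites of NRF1, GABP (an ETS family factor) and YY1. RefSeq promoter windows (250 bases before to 50 after a transcript start, GRCm38.p6) were matched by symbol for 73 of the 92 genes, and 19 had no window. On either strand, the NRF1 letters GCGCATGCG were found for 10 of the 73 genes (13.7%), against 1.95% of the 27025 genes with a window. The ETS letters CCGGAAG were found for 17 genes (23.3%, against 9.93%) and the YY1 letters AAGATGGCG for 7 (9.59%, against 1.64%). At least 1 of the 3 was present for 29 genes (39.7%, against 12.7%). A match describes the letters in the window and does not show that a factor binds there. With the matched letters in capitals, windows of genes that fell (*Uqcrc1*, *Sdhb*, *Ndufs7*) and of the assembly factor genes *Ndufaf4* and *Ndufaf5*, which did not, are printed here. They were chosen after the values were seen. Windows with the same NRF1 letters can thus be read beside changes fitted in opposite directions without correction for GC content. In that fit, of the 10 genes with the NRF1 letters, only *Ndufaf4* and *Ndufaf5* lay above baseline. The others were fitted below it with both treatments. Neither rise was called with vehicle, nor with NSC after correction for GC content. The split by direction did not hold after this correction. On the log2 scale *Ndufaf4* then stood at -0.11 (vehicle) and 0.03 (NSC). *Atp5g2*, one of the others, then lay above baseline at 0.04 (vehicle) and 0.25 (NSC), neither called. *Ndufaf5* stayed above baseline, at 0.22 and 0.31, and the remaining genes stayed at or below it.
Uqcrc1 (chr9:108936398-108936697, + strand, NRF1 letters on both strands, overlapping): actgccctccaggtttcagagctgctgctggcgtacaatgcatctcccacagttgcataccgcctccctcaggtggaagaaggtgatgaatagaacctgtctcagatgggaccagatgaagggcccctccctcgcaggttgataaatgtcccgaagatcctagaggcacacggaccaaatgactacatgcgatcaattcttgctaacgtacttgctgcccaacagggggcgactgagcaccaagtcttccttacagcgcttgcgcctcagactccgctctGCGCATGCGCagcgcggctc
Ndufaf4 (chr4:24897833-24898132, + strand, NRF1 letters on both strands, overlapping): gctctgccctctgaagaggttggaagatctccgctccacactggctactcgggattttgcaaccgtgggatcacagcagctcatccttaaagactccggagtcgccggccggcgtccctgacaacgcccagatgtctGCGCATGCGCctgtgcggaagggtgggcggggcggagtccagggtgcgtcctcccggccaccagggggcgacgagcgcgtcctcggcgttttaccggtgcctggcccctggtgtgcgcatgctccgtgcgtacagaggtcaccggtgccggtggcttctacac
Ndufaf5 (chr2:140170396-140170695, + strand, NRF1 letters on both strands, overlapping): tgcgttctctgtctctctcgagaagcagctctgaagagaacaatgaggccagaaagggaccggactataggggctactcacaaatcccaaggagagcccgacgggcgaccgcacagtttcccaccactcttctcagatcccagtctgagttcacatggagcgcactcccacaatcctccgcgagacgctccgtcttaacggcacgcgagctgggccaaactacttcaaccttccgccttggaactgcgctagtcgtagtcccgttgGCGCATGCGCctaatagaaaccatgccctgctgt
Sdhb (chr4:140961021-140961320, + strand, ETS letters): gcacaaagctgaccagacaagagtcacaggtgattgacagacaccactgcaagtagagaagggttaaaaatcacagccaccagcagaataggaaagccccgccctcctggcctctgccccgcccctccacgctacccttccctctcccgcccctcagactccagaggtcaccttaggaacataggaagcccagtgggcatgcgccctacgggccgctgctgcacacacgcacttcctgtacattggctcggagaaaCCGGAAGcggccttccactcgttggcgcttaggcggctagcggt
Ndufs7 (chr10:80249199-80249498, + strand, YY1 letters): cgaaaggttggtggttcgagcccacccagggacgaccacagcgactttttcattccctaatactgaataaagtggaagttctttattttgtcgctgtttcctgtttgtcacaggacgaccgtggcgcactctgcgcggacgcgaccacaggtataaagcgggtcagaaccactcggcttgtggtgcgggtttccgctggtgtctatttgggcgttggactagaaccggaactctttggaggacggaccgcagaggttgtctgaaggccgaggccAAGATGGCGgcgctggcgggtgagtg

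Libraries held 23997363 to 42887589 reads assigned to genes, and 3 counts correspond to 0.075 to 0.117 CPM (counts scaled to the library total with TMM factors). As labelled, the tissue was liver: the 12 hepatocyte markers summed to 131000 to 140000 CPM at baseline, 104000 to 141000 CPM with vehicle at 40 h and 108000 to 132000 CPM with NSC, with none at 0. Of these 12, 3 fell with vehicle (11.0% of all genes) and 5 with NSC (16.5%). The 8 stellate cell markers summed to 205 to 246 CPM at baseline, 405 to 573 CPM with vehicle and 252 to 461 CPM with NSC at 40 h. The 5 cholangiocyte markers went from 37.7 to 40.6 CPM at baseline to 75.9 to 114 CPM and 79.0 to 121 CPM, and the 10 macrophage markers from 215 to 294 CPM to 203 to 367 CPM and 364 to 574 CPM. The 7 erythroid markers went from 225 to 327 CPM to 105 to 185 CPM and 129 to 231 CPM. The 5 smooth muscle markers went from 14.9 to 20.5 CPM at baseline to 38.9 to 65.8 CPM and 29.5 to 59.8 CPM, and the 8 neutrophil markers from 1.77 to 6.06 CPM to 7.27 to 13.1 CPM and 10.1 to 14.5 CPM. The part of these markers in the results below was not tested, and in whole liver fewer cells of a type and less RNA per cell cannot be told apart. One library stood apart for the respiratory chain genes. NSC replicate 3 was the highest of the 3 NSC livers for 82 of the 87 genes tested and lay above all 3 baselines for 43, and NSC replicate 1 was the lowest of its group for 73. Counts and medians of the complexes with NSC are therefore also given without each of them.

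At baseline the transcripts of the chain were abundant. Levels between genes were compared as FPKM, the deposited counts per kilobase of gene scaled to the library total. The median over the 87 genes tested was 67.3 FPKM. *Ndufa4* was the highest at 668 ± 73.8 FPKM (SD, n = 3), rank 81 among all genes listed. *Cox6b1*, a small complex IV subunit that faces the intermembrane space, followed at 420 ± 11.6 FPKM. The median was 41.6 FPKM in complex I, 118 FPKM in complex II, 124 FPKM in complex III, 138 FPKM in complex IV and 92.4 FPKM in complex V. The highest of complex V was *Atp5a1*, the alpha subunit of the catalytic F1 part, at 320 ± 1.52 FPKM, and the lowest was *Atp5s*, a gene known as coupling factor B, at 2.16 ± 0.277 FPKM. Complex II had the narrowest range, from 67.3 ± 2.11 FPKM for the membrane anchor gene *Sdhc* to 187 ± 5.87 FPKM for the other anchor gene, *Sdhd*. In complex III the range ran from 61.1 ± 3.50 FPKM for the core gene *Uqcrc1* to 219 ± 29.3 FPKM for the small subunit gene *Uqcr11*.

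**Figure D1:**
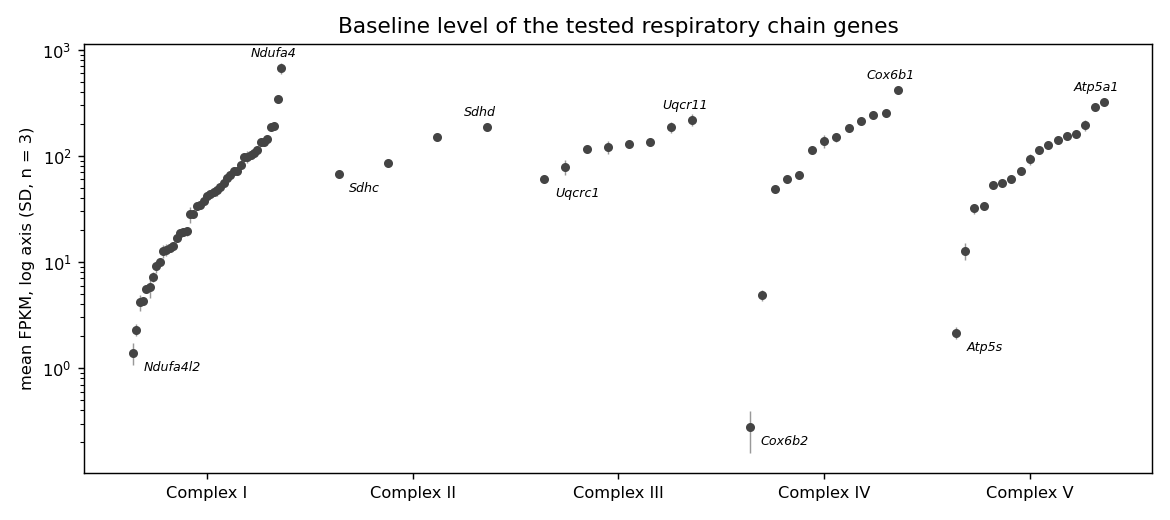
Mean FPKM at baseline (log axis) of the 87 genes tested, ordered within each complex, with bars of 1 SD over 3 livers. Levels span from 0.276 FPKM for *Cox6b2* to 668 FPKM for *Ndufa4*, and the 4 complex II genes lie within 67.3 to 187 FPKM.

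At 40 h after hepatectomy, the respiratory chain genes of vehicle-treated mice were mostly lower than at baseline. By the edgeR quasi-likelihood test with Benjamini-Hochberg adjustment over the 15024 genes tested, 14 of the 87 fell at an adjusted p under 0.05, where 11.0% of all genes did, and 1 rose, where 12.7% did. The median log2 fold change of the 87 was -0.35 (0.787 of the baseline level), against 0.01 over all genes tested, and 79 of the 87 were fitted below 0. For 59 genes all 3 livers lay below all 3 baselines (22.0% of all genes), and for 2 all lay above (24.2%). Other fits called more of the 87 lower, namely 25 by DESeq2 (13.8% of all genes), 30 by edgeR's exact test (15.2%) and 34 after correction for GC content (17.1%). The count of genes that fell was 4 without vehicle replicate 1, 5 without vehicle replicate 2, baseline replicate 1 or baseline replicate 3, and 29 without NSC replicate 1, since all libraries shared 1 estimate of the spread. The median stayed between -0.36 and -0.30 in these fits with 1 library left out. After correction for GC content it was lower, as given in the closing section.

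With NSC, 26 of the 87 genes fell from baseline (16.5% of all genes) and 4 rose (18.2%), with a median log2 fold change of -0.26, or 0.837 of the baseline level, against 0.01 over all genes. For 31 genes all 3 NSC livers lay below the baselines (23.1% of all genes), and for 4 all lay above (24.0%). Without NSC replicate 3, 46 genes fell and the median was -0.49, whereas without NSC replicate 1 the count was 19. It was 10 without NSC replicate 2 and 13 without baseline replicate 3. Of the genes that fell, 13 did so under both treatments, which is 92.9% of those called with vehicle and 50% of those called with NSC. Both comparisons use the same baseline libraries, so this overlap is not independent. Requiring an absolute log2 fold change over 1.5 as well left only *Cox6b2*, which rose in both. Of all genes, 5.03% rose and 2.19% fell past that threshold with vehicle, and 5.38% and 2.75% with NSC.

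Compared directly at 40 h, NSC-treated and vehicle-treated livers did not differ in any of the 87 genes at an adjusted p under 0.05 by edgeR (0% of all genes were called higher and 0.0399% lower). At an unadjusted p under 0.05, 3 were higher and 5 lower. These were smaller shares than over the 15024 genes tested, of which 1397 were higher and 1532 lower. DESeq2 called 1 gene higher and none lower (292 and 466 of all genes), and edgeR's exact test called none. The median log2 fold change was 0.07. Without NSC replicate 3 it was -0.16 and without NSC replicate 1 it was 0.19, so its sign turned without NSC replicate 3. All 3 NSC livers lay above the vehicle livers for 2 genes (10.3% of all genes) and below them for 5 (12.2%).

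**Figure D2:**
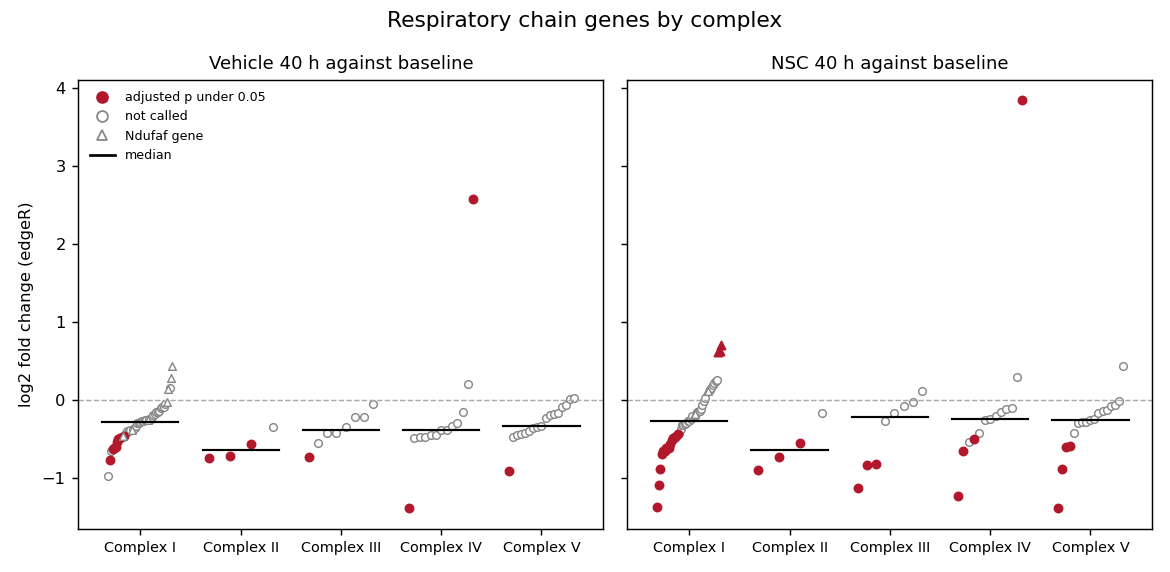
Log2 fold change from baseline (edgeR) of each gene tested, by complex, with vehicle (left) and NSC (right) at 40 h. Filled symbols have an adjusted p under 0.05, triangles are *Ndufaf* genes and lines are medians. Most genes lie below 0, the complex II median is -0.64 in both panels, and *Cox6b2* stands apart at 2.57 and 3.84.

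Complex II had the lowest median of the 5 complexes in both comparisons. Of its 4 genes, 3 fell in both treatments, where 11.0% of all genes fell with vehicle and 16.5% with NSC. The median log2 fold change was -0.64 in each, against -0.39 to -0.28 with vehicle and -0.27 to -0.22 with NSC in the other complexes. *Sdha*, the flavoprotein that oxidizes succinate, was at 639, 572 and 595 CPM in the baseline livers, 347, 368 and 360 CPM with vehicle and 300, 329 and 337 CPM with NSC. The 6 livers at 40 h all lay below the 3 baselines, and the NSC livers all lay below the vehicle livers. Its log2 fold change from baseline was -0.75 (standard error 0.14, edgeR adjusted p = 0.00343) with vehicle and -0.90 (standard error 0.14, edgeR adjusted p = 0.000848) with NSC, and the direct difference of -0.15 was not called (edgeR adjusted p = 0.580). *Sdhb*, the iron-sulfur subunit that passes electrons on to the anchor, was at 194, 205 and 193 CPM at baseline, 112, 116 and 131 CPM with vehicle and 84.3, 114 and 158 CPM with NSC. NSC replicate 3 was the nearest to baseline, but no liver at 40 h reached it. *Sdhb* fell by 0.72 (standard error 0.20, edgeR adjusted p = 0.0214) and 0.73 (standard error 0.20, edgeR adjusted p = 0.0144) on the log2 scale. *Sdhc* was at 236, 221 and 222 CPM at baseline, 161, 144 and 156 CPM with vehicle and 139, 139 and 186 CPM with NSC, again with no overlap with baseline. Its log2 fold changes were -0.56 (edgeR adjusted p = 0.0216) and -0.55 (edgeR adjusted p = 0.0164). *Sdhd* was at 243, 251 and 255 CPM at baseline, 176, 195 and 217 CPM with vehicle and 184, 198 and 283 CPM with NSC. It was not called in either comparison (log2 fold change -0.35, edgeR adjusted p = 0.182, and -0.17, edgeR adjusted p = 0.488), and NSC replicate 3 exceeded every baseline. The calls of *Sdha* remained with each library left out. Those of *Sdhb* and *Sdhc* with vehicle were lost, among others, without baseline replicates 1 or 3 or vehicle replicates 1 or 2, and those with NSC were lost without NSC replicate 2 and, for *Sdhc*, also without baseline replicates 1 or 3. With NSC, 3 genes fell both without NSC replicate 3 (median -0.82) and without NSC replicate 1 (median -0.51).

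**Figure D3:**
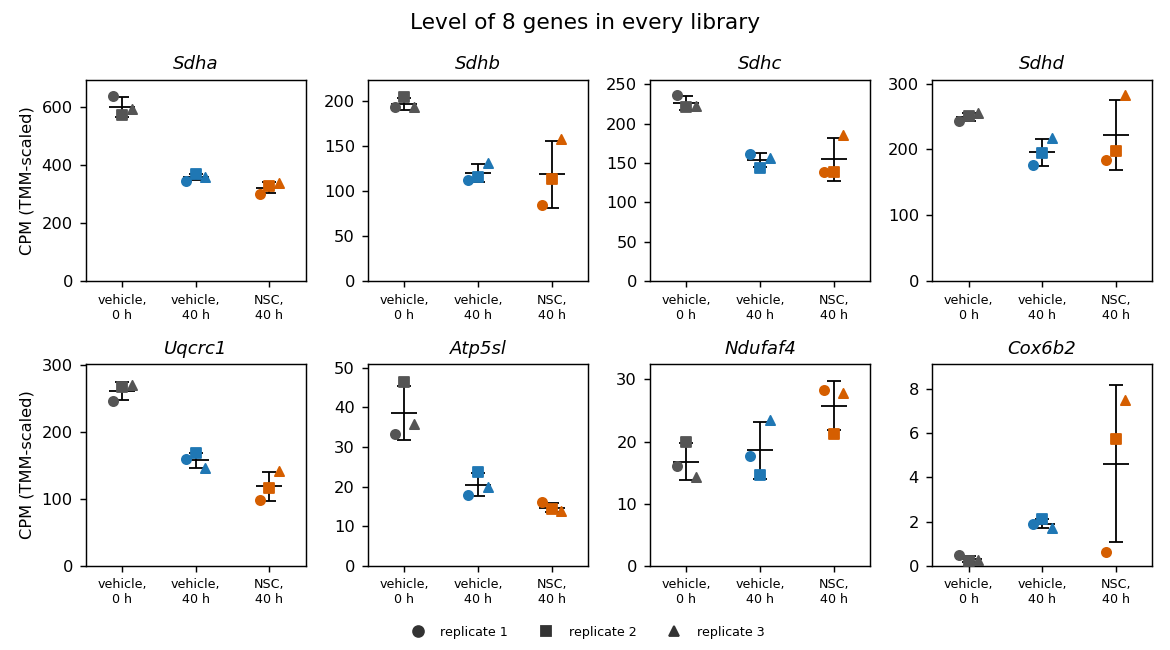
TMM-scaled CPM of 8 genes in each of the 9 libraries, with the mean and SD of each group of 3. *Sdha* lies at 572 to 639 CPM at baseline and 300 to 368 CPM at 40 h, while *Ndufaf4* and *Cox6b2* are higher in the NSC livers than at baseline.

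Complex I held 45 genes, of which 8 fell with vehicle (11.0% of all genes) and 13 with NSC (16.5%). Its median log2 fold changes were -0.28 and -0.27. Without NSC replicate 3, 24 fell with NSC, with a median of -0.50, and without NSC replicate 1, 8 fell, with a median of -0.13. The core subunits carry the flavin and the iron-sulfur clusters. Among them, *Ndufv1*, the flavoprotein that binds NADH, was at 181, 182 and 197 CPM at baseline, 134, 141 and 122 CPM with vehicle and 79.1, 101 and 123 CPM with NSC. All livers at 40 h were below baseline. The log2 fold change was -0.50 (standard error 0.17, edgeR adjusted p = 0.0498) with vehicle, a call lost in 13 of 22 alternatives, and -0.89 (standard error 0.17, edgeR adjusted p = 0.00215) with NSC. *Ndufs7*, which holds the last iron-sulfur cluster before ubiquinone, was at 41.6, 50.8 and 57.9 CPM at baseline, 33.7, 35.6 and 26.7 CPM with vehicle and 14.3, 22.9 and 33.8 CPM with NSC. Its log2 fold change was -0.65 (edgeR adjusted p = 0.0993) with vehicle and -1.09 (standard error 0.27, edgeR adjusted p = 0.00947) with NSC, or -0.66 after correction for GC content. *Ndufs3* fell in both, by 0.54 (edgeR adjusted p = 0.0259) and 0.44 (edgeR adjusted p = 0.0457) on the log2 scale, the latter in 6 of 22 alternatives. The core genes *Ndufs1* (log2 fold changes -0.40 and -0.32), *Ndufs8* (-0.16 and -0.24) and *Ndufv2* (-0.09 and 0.22) were not called in either comparison. After correction for GC content *Ndufs1* was called lower in both, at -0.59 and -0.67 (edgeR adjusted p = 0.00391 and 0.00181), and *Ndufs8* and *Ndufv2* in neither.

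Of the accessory subunits of complex I, *Ndufa6* and *Ndufs5* had the smallest adjusted p with vehicle and *Ndufa10* with NSC. *Ndufa6* was at 108, 116 and 101 CPM at baseline, 54.4, 62.9 and 73.2 CPM with vehicle and 59.4, 66.9 and 94.3 CPM with NSC. *Ndufs5* was at 50.8, 47.5 and 50 CPM at baseline, 31.5, 32.1 and 31.9 CPM with vehicle and 27.4, 26.9 and 39.5 CPM with NSC. The livers at 40 h did not overlap with baseline for either gene, and NSC replicate 3 was the highest of them. With vehicle, *Ndufa6* fell by 0.77 (standard error 0.18, edgeR adjusted p = 0.0105) and *Ndufs5* by 0.63 (standard error 0.16, edgeR adjusted p = 0.0124) on the log2 scale, the former not called without vehicle replicate 1. *Ndufa10* was at 113, 123 and 122 CPM at baseline and 65.5, 74.1 and 87.1 CPM with NSC, or -0.66 on the log2 scale (standard error 0.14, edgeR adjusted p = 0.00396) that was called in every alternative but the one that also required a log2 fold change past 1.5. *Ndufa4l2*, a paralog of *Ndufa4* known for its induction in hypoxia, was low, at 1.23, 1.77 and 1.19 CPM at baseline, 0.875, 0.622 and 0.627 CPM with vehicle and 0.540, 0.305 and 0.782 CPM with NSC. Its log2 fold change was -0.97 (edgeR adjusted p = 0.0869) with vehicle and -1.37 (standard error 0.40, edgeR adjusted p = 0.0196) with NSC, where the call was lost after correction for GC content. *Ndufa4l2* overlaps *Shmt2*, at means of 201, 156 and 124 CPM in the 3 groups, so its few reads are uncertain.

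The *Ndufaf* assembly factor genes had a median log2 fold change near 0 with vehicle and above it with NSC, and their difference from the subunit genes was not tested. After correction for GC content these medians were -0.24 and 0.03, and after correction for gene length -0.14 and 0.08. By the edgeR quasi-likelihood test, none of the 7 was called with vehicle (median log2 fold change -0.03). At an unadjusted p under 0.05, 0 were higher and 1 lower, beside 2911 and 2655 of the 15024 genes tested. DESeq2 also called none with vehicle and edgeR's exact test 1 lower. The corrections for GC content and for gene length each called *Ndufaf1* lower with vehicle (log2 fold change -0.61, edgeR adjusted p = 0.0138, and -0.49, edgeR adjusted p = 0.0388). With NSC 3 rose and none fell (median 0.12). *Ndufaf4* was at 16.0, 20 and 14.3 CPM at baseline, 17.6, 14.6 and 23.5 CPM with vehicle and 28.3, 21.2 and 27.9 CPM with NSC. The vehicle livers overlapped with baseline and the NSC livers lay above it, with a rise of 0.62 on the log2 scale (standard error 0.20, edgeR adjusted p = 0.0324). *Ndufaf5* was at 3.95, 4.0 and 4.82 CPM at baseline and 5.55, 7.53 and 7.63 CPM with NSC (a rise of 0.70 on the log2 scale, standard error 0.23, edgeR adjusted p = 0.0328). *Ndufaf2* rose by 0.61 (edgeR adjusted p = 0.0424), with NSC replicate 1 among the baselines. All 3 calls were lost after correction for GC content, with log2 fold changes of 0.03, 0.31 and 0.50 for *Ndufaf4*, *Ndufaf5* and *Ndufaf2*. None of the 3 was called without NSC replicate 3, baseline replicate 1 or baseline replicate 3, and no more than 2 were called without any other single library. *Ndufaf1* was at 15.6, 13.0 and 18.8 CPM with vehicle and 19.8, 26.9 and 24.2 CPM with NSC, which did not overlap, but the direct log2 fold change of 0.58 was not called (standard error 0.17, edgeR adjusted p = 0.119). Among 39 assembly factors outside the name rule, 3 fell and none rose with vehicle, and 4 fell and 5 rose with NSC. These were smaller shares than over all genes, of which 11.0% fell and 12.7% rose with vehicle. With NSC, 16.5% of all genes fell and 18.2% rose. *Sco2*, which delivers copper to complex IV, fell by 1.04 and 1.33 on the log2 scale (edgeR adjusted p = 0.0214 and 0.00470), and *Tmem186*, a complex I assembly gene, rose with NSC by 0.88 (edgeR adjusted p = 0.0115).

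In complex III, 1 of 8 genes fell with vehicle (11.0% of all genes) and 3 with NSC (16.5%). The medians were -0.38 and -0.22. With NSC, 4 fell without NSC replicate 3 (median -0.43) and 3 without NSC replicate 1 (median -0.12). *Uqcrc1*, a core subunit on the matrix side, was at 246, 268 and 271 CPM at baseline, 160, 168 and 146 CPM with vehicle and 98.5, 117 and 142 CPM with NSC. The 3 groups did not overlap with each other. Its log2 fold change was -0.73 (standard error 0.16, edgeR adjusted p = 0.00707) with vehicle and -1.13 (standard error 0.16, edgeR adjusted p = 0.000429) with NSC, both called with each library left out. The direct difference of -0.41 was not called (edgeR adjusted p = 0.200). The small subunit genes *Uqcrq* and *Uqcr11* fell with NSC by 0.82 and 0.84 on the log2 scale (edgeR adjusted p = 0.0236 and 0.0207), but *Uqcr11* was not called after correction for GC content (-0.41, edgeR adjusted p = 0.148). *Uqcrc2*, the other core subunit, had log2 fold changes of -0.42 and -0.27, and *Uqcrfs1*, the Rieske iron-sulfur protein, of -0.35 and -0.08, none of them called. After correction for GC content *Uqcrc2* was called lower in both comparisons, at -0.63 and -0.65 (edgeR adjusted p = 0.00867 and 0.00704), and *Uqcrfs1* in neither. Of 7 chain components outside the name rule, 1 fell and 1 rose with vehicle (11.0% and 12.7% of all genes). With NSC, 2 fell and 1 rose (16.5% and 18.2%). One of these 7 components is *Cyc1*, the cytochrome c1 of complex III. It was at 210 ± 5.23 CPM at baseline (SD, n = 3 in each group), 152 ± 6.63 CPM with vehicle and 135 ± 36.0 CPM with NSC, with log2 fold changes of -0.47 (edgeR adjusted p = 0.0783) and -0.63 (edgeR adjusted p = 0.0175). The mobile carrier gene *Cycs* had 0.10 and 0.45, neither called (edgeR adjusted p = 0.703 and 0.0517).

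Complex IV had 13 genes tested of 18 listed. With vehicle 1 fell (11.0% of all genes) and 1 rose (12.7%), and with NSC 3 fell (16.5%) and 1 rose (18.2%). The medians were -0.39 and -0.25. With NSC, 6 fell without NSC replicate 3 (median -0.42) and 1 without NSC replicate 1 (median -0.12). *Cox4i1*, the regulatory subunit of most tissues, was at 390, 386 and 435 CPM at baseline, 280, 316 and 277 CPM with vehicle and 207, 234 and 328 CPM with NSC. All livers at 40 h lay below baseline. The log2 fold change was -0.47 (edgeR adjusted p = 0.0816) with vehicle and -0.66 (standard error 0.18, edgeR adjusted p = 0.0161) with NSC, the latter lost after correction for GC content and without NSC replicate 2 or baseline replicate 3. *Cox8a* fell with NSC by 0.50 (edgeR adjusted p = 0.0307), in 10 of 22 alternatives. *Cox5a* and *Cox5b* were not called, at -0.34 and -0.39 with vehicle and -0.16 and -0.43 with NSC. After correction for GC content both were called lower in both comparisons. *Cox5a* was then at -0.57 and -0.66 (edgeR adjusted p = 0.0214 and 0.00959) and *Cox5b* at -0.48 and -0.51 (edgeR adjusted p = 0.0492 and 0.0383).

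Of the 8 isoforms listed as tissue-restricted, with the paralog *Ndufa4l2* counted among them, 5 were too low to test. Of their 7 widely expressed partners, none was called with vehicle. With NSC, 2 fell (*Cox4i1* and *Cox8a*), where 16.5% of all genes did. After correction for GC content, *Cox4i1*, *Cox7b*, *Cox8a* and *Ndufa4* were called lower with vehicle, and only *Cox7b* and *Ndufa4* with NSC. *Cox7b2* and *Cox8c* are listed at 0 in all libraries, which allows up to 3 counts in each. *Cox4i2*, the lung isoform, had 1 to 4 counts per library, and the muscle isoform genes *Cox6a2* and *Cox8b* had at most 4 and 1. *Cox7a1*, the heart and muscle partner of *Cox7a2*, was at 2.08, 1.65 and 1.75 CPM at baseline, 0.825, 0.570 and 0.701 CPM with vehicle and 0.420, 0.509 and 1.45 CPM with NSC. No liver at 40 h reached baseline. It fell by 1.38 (standard error 0.44, edgeR adjusted p = 0.0384) and 1.23 (standard error 0.44, edgeR adjusted p = 0.0476) on the log2 scale, calls lost in 8 and 15 of 22 alternatives. Skeletal muscle markers summed to 0.630 to 1.33 CPM over the 9 libraries, and 6 of the 7 had at most 3 counts in any library. The widely expressed partner *Cox7a2* was at 241 ± 14.7 FPKM at baseline (SD, n = 3), against 4.83 ± 0.583 FPKM for *Cox7a1*, and was not called (log2 fold change 0.21 and 0.29).

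*Cox6b2*, known as the testis isoform of *Cox6b1*, was the only gene of the chain to pass a log2 fold change of 1.5. Its counts were 15, 7 and 8 at baseline, 76, 81 and 46 with vehicle and 21, 169 and 192 with NSC. In CPM these were 0.474, 0.214 and 0.264 at baseline, 1.90, 2.10 and 1.70 with vehicle and 0.630, 5.74 and 7.51 with NSC. NSC replicate 1 lay just above the highest baseline and below every vehicle liver, while the other NSC livers were the highest of all. It rose by 2.57 (standard error 0.79, edgeR adjusted p = 0.0429) with vehicle, a call lost in 11 of 21 alternatives, and by 3.84 (standard error 0.80, edgeR adjusted p = 0.00548) with NSC, called in all 21. The direct log2 fold change of 1.27 was not called (standard error 0.67, edgeR adjusted p = 0.322). Even at its highest, the transcript stayed far below *Cox6b1*, which was at 162, 188 and 265 CPM in the same NSC livers.

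In complex V, 1 of 17 genes fell with vehicle (11.0% of all genes) and 4 with NSC (16.5%). The medians were -0.34 and -0.26. With NSC, 9 fell without NSC replicate 3 (median -0.49) and 4 without NSC replicate 1 (median -0.06). The single gene called with vehicle was *Atp5sl*, which is no ATP synthase subunit. It was at 33.3, 46.3 and 35.9 CPM at baseline, 17.9, 23.7 and 19.9 CPM with vehicle and 16.0, 14.3 and 13.7 CPM with NSC. The 3 groups did not overlap, and here NSC replicate 3 was the lowest of all livers. *Atp5sl* had the smallest adjusted p of the 87 genes in both comparisons, with log2 fold changes of -0.91 (standard error 0.17, edgeR adjusted p = 0.00254) and -1.39 (standard error 0.17, edgeR adjusted p = 0.000165), and the direct difference of -0.48 was not called (standard error 0.17, edgeR adjusted p = 0.156). The 3 other genes that fell with NSC encode F1 subunits. *Atp5b*, the catalytic beta subunit, was at 1360, 1200 and 1250 CPM at baseline, 969, 987 and 1000 CPM with vehicle and 797, 812 and 898 CPM with NSC. *Atp5a1* was at 1040, 1050 and 1030 CPM at baseline, 785, 764 and 747 CPM with vehicle and 586, 708 and 773 CPM with NSC. Neither reached its baseline range in any liver at 40 h. With NSC, *Atp5b* fell by 0.60 (standard error 0.15, edgeR adjusted p = 0.0102), *Atp5a1* by 0.59 (standard error 0.16, edgeR adjusted p = 0.0135) and *Atp5d*, the delta subunit, by 0.89 (standard error 0.19, edgeR adjusted p = 0.00422) on the log2 scale. After correction for GC content *Atp5d* fell by 0.47. With vehicle the 5 F1 genes had log2 fold changes of -0.45 to -0.17, none called. At an unadjusted p under 0.05, 4 were lower, as were 2655 of the 15024 genes tested. After correction for GC content, *Atp5a1* (-0.5), *Atp5b* (-0.42) and the F1 gene *Atp5c1* (-0.52) were called lower with vehicle (edgeR adjusted p = 0.0266, 0.0464 and 0.0316). The 3 genes of the membrane c ring were not called in either comparison (-0.47 to 0.03 and -0.28 to -0.25). After the same correction 1 of them, *Atp5g3*, was called lower with vehicle (-0.55, edgeR adjusted p = 0.041) but not with NSC. *Atpif1*, which encodes the inhibitor of the F1 part and lies outside the name rule, rose from 11.8 ± 1.85 CPM to 19.2 ± 1.19 CPM with vehicle (SD, n = 3 in each group) and 19.8 ± 4.73 CPM with NSC (edgeR adjusted p = 0.0210 and 0.0108).

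Summed over all its genes, each complex was lower in the 3 vehicle livers than in the 3 baselines. The sum of all members was 8830, 8410 and 8680 FPKM at baseline, 7110, 6280 and 7170 FPKM with vehicle and 6510, 6870 and 9540 FPKM with NSC. NSC replicate 3 thus lay above every baseline, and its sum was 8950 FPKM after TMM scaling, within the scaled baselines of 8720 to 9190 FPKM. In complex V its scaled sum of 1850 FPKM lay below the scaled baselines of 1920 to 2060 FPKM. In complex II no liver at 40 h reached baseline. The sum was 492, 484 and 492 FPKM at baseline, 343, 308 and 356 FPKM with vehicle and 332, 340 and 463 FPKM with NSC. Values that stand beside this library are those of short genes: the median level of all 1472 tested genes under 1000 bases, on the log2 scale against the mean of the 9 libraries, was 0.18 in NSC replicate 3 and -0.17 in NSC replicate 1, and lay between -0.07 and 0.05 in the other libraries. The same measure over the 87 genes was 0.27 and -0.40 in these livers. Over the 12 hepatocyte markers it was 0.01 and -0.41, and 0.17 to 0.38 in the baseline livers. The genes tested had a median length of 1480 bases, against 3450 bases over all genes tested. Their part in the result was not tested.

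**Figure D4:**
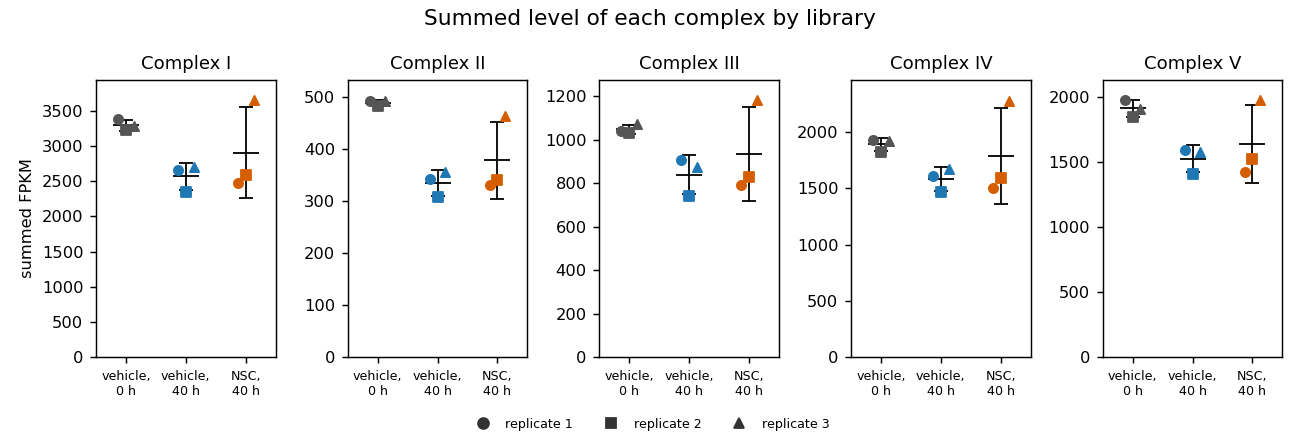
Summed FPKM of each complex in the 9 libraries (axes from 0), with the mean and SD of each group of 3. Vehicle livers at 40 h lie below baseline in every complex, and NSC replicate 3 (triangle) reaches or exceeds baseline in all but complex II on this unscaled measure.

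GC content moved with the changes. Over the 87 genes, which are not independent replicates, Spearman's correlation between GC content and log2 fold change was -0.26 with vehicle, -0.56 with NSC and -0.60 between NSC and vehicle. Over all genes tested it was -0.13, -0.41 and -0.56, so the relation was present across the whole table. With NSC, 18 of the 29 genes with the highest GC content (52.5% to 63.3%) fell, against 1 of the 29 with the lowest (37.0% to 48.1%). After a per-library correction for GC content these were 7 and 12. The corrected counts over all 87 genes were 34 that fell with vehicle (17.1% of all genes) and 27 with NSC (17.9%), and 1 rose in each (11.1% and 12.5%). The correction also moved the median of all genes to -0.10 with vehicle and -0.07 with NSC. In complex II, 3 of 4 genes were called in both comparisons, with medians of -0.71 and -0.63.

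**Figure D5:**
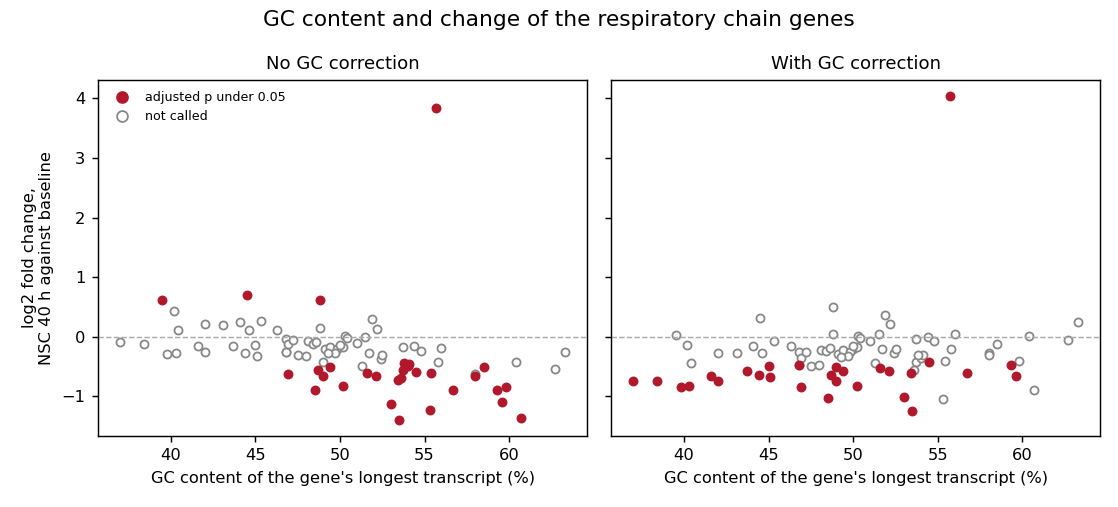
Log2 fold change from baseline with NSC of the 87 genes against the GC content of the longest transcript, without (left) and with (right) correction for GC content. Filled points have an adjusted p under 0.05. On the left the genes that fell lie mostly at high GC content, and on the right they are spread over its whole range.

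Lists of genes around the chain differed from each other. In the TCA cycle, which supplies NADH and succinate, 3 of 13 genes fell and 1 rose with vehicle. With NSC, 7 fell and 1 rose. Of all genes, 11.0% fell and 12.7% rose with vehicle, and 16.5% fell and 18.2% rose with NSC. In each comparison 11 of the 13 TCA genes were fitted below 0. Their medians were -0.33 and -0.41, beside -0.35 and -0.26 for the 87 respiratory chain genes. *Idh3b*, a subunit of isocitrate dehydrogenase, fell by 0.67 and 0.85 on the log2 scale (edgeR adjusted p = 0.00502 and 0.000924), while *Idh3a*, the catalytic subunit of the same enzyme, rose by 0.53 and 0.65 (edgeR adjusted p = 0.0311 and 0.00851). *Ogdh*, of the oxoglutarate dehydrogenase complex, fell with NSC from 209 ± 7.49 CPM to 99.3 ± 12.6 CPM (SD, n = 3 each; log2 fold change -1.07, edgeR adjusted p = 0.000937). Of 7 other enzymes that feed electrons to ubiquinone, 2 fell in each comparison, led by the proline dehydrogenase gene *Prodh* at -1.60 and -1.94 (edgeR adjusted p = 0.00648 and 0.00180). Of 11 genes of coenzyme Q synthesis, 2 fell and 1 rose with vehicle and 3 fell and 1 rose with NSC. *Coq10a* fell by 0.89 and 1.01 (edgeR adjusted p = 0.00275 and 0.000938), and *Pdss1*, which makes the side chain, rose by 0.82 and 1.30 (edgeR adjusted p = 0.0385 and 0.00287).

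The genes that build and express mitochondria went both ways. Of 22 such genes, 3 fell and 1 rose with vehicle, and 5 fell and 5 rose with NSC. Of all genes, 11.0% fell and 12.7% rose with vehicle, and 16.5% fell and 18.2% rose with NSC. The medians of the 22 were -0.1 and 0.18. The coactivator gene *Ppargc1a*, known to drive respiratory chain transcription, was at 13.5 ± 5.09 CPM at baseline (SD, n = 3 in each group), 6.24 ± 0.575 CPM with vehicle and 5.63 ± 0.867 CPM with NSC, log2 fold changes of -1.12 (edgeR adjusted p = 0.00686) and -1.27 (edgeR adjusted p = 0.00254). Its relative *Ppargc1b* fell by 2.34 and 2.47 on the log2 scale (edgeR adjusted p = 0.00404 and 0.00226), and *Pprc1*, the third coactivator of the family, rose by 1.55 and 0.94 (edgeR adjusted p = 0.00417 and 0.0302). *Esrra*, a nuclear receptor partner of *Ppargc1a*, fell with NSC by 0.87 (edgeR adjusted p = 0.0236) and was not called with vehicle (-0.77, edgeR adjusted p = 0.0519). Of the factors whose letters were searched in the promoters, *Nrf1* had log2 fold changes of 0.26 and 0.24 and *Gabpa* of -0.24 and 0.17, none called, while *Yy1* rose with NSC by 0.44 (edgeR adjusted p = 0.0291) but not with vehicle (-0.03). *Tfam*, the packaging and transcription factor of mitochondrial DNA, was at 37.6 ± 1.70 CPM at baseline (SD, n = 3 in each group), 36.3 ± 3.80 CPM with vehicle and 52.0 ± 2.32 CPM with NSC. It rose with NSC by 0.47 (edgeR adjusted p = 0.0144), and the direct difference of 0.52 was not called (edgeR adjusted p = 0.0907). Mitochondrial ribosomal protein genes numbered 77, with medians of -0.05 and 0.01. Of them, 2 fell and 1 rose with vehicle and 6 fell and 10 rose with NSC, smaller shares than over all genes. Of 7 genes of ATP export and uncoupling tested, 2 rose with vehicle and 3 with NSC and none fell, led by *Ucp2* at 1.17 and 1.02 (edgeR adjusted p = 0.00631 and 0.00846).

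Some members share reads or sequence with other genes. The intervals of 31 of the 92 overlap another gene of the table, among the genes named above *Ndufs3*, *Cox4i1*, *Atp5d*, *Sdha* and *Ndufa4l2*. The library kit keeps strand, but whether the counting used it is not given in the sources used here. Reads shared with processed pseudogenes, which many of these genes have, are likewise uncertain. All 92 identifiers are present in GENCODE M21 (GRCm38), 59 of them with identical chromosome, start and end. *Sdha* (ENSMUSG00000021577) lies on chromosome 13 from 74322254 to 74350280, *Uqcrc1* (ENSMUSG00000025651) on chromosome 9 from 108936633 to 108949623, and *Cox6b2* (ENSMUSG00000051811) on chromosome 7 from 4751792 to 4753094.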

How the data were processed

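Raw counts per gene and FPKM were deposited by the authors for 9 libraries, without pooling. Paired-end reads of a stranded mRNA kit were aligned with STAR 2.6.1 within MAP-RSeq and assigned to genes with featureCounts of Subread 1.5.1, per the labels and methods. These name the human build hg38, whereas the deposited identifiers and coordinates are mouse ones. How multi-mapped reads were treated is not given in the sources used here. The deposited FPKM values equal the counts divided by the library total and by the listed gene length plus 1 base (largest relative difference 4.96e-10 above 1 FPKM).

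Counts were tested with edgeR 4.0.16 and limma 3.58.1 under R 4.3.3: TMM factors, filterByExpr, and 1 quasi-likelihood fit of all 9 libraries with the group as the only term, Benjamini-Hochberg adjustment over 15024 genes and a threshold of 0.05. Python 3.11.15 wrote tables and plots, using pandas 2.3.3, scipy 1.17.1 and matplotlib 3.10.9. The procedure was tested on simulated data. Alternatives were DESeq2 1.42.0, edgeR's exact test, RLE factors, library size only, other filters and thresholds, a fit of 2 groups alone, a block for the replicate number, correction by a loess curve (span 0.5) on gene length or on the GC content taken from each gene's longest transcript in GENCODE M21, each library left out, and TMM-scaled FPKM.

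Members, gene lists and alternatives were chosen with earlier results of these data known. Genes named are the catalytic or core subunits and tissue-restricted isoforms with their partners, the called members with the smallest adjusted p and no overlap (up to 5 per direction), the 3 largest changes per comparison, and the highest and lowest baseline level per complex. Of other lists, *Ppargc1a*, *Nrf1*, *Gabpa*, *Esrra*, *Tfam*, *Cyc1*, *Cycs* and the largest called changes were named. Others (*Atp5c1*, *Atp5d*, *Atp5g2*, *Atp5g3*, *Uqcrq*, *Uqcr11*, *Ndufaf2*, *Ppargc1b*, *Pprc1*, *Yy1*, *Atpif1* and *Idh3a*) were singled out after their values were seen. No library duplicated another of its group (chi-square of at least 22.9 per gene for each pair). Deviations of same-numbered libraries from their group means correlated between -0.0473 and 0.132, against -0.112 to 0.0649 for differently numbered ones. All same-numbered values were above 0 but that of replicate 3 at baseline and with vehicle at 40 h. The highest was between vehicle and NSC replicate 1 at 40 h, which are different mice. With values this small, the numbers were not taken to pair the samples. One gene that the rule names is not reported here. Floors cover counting error only.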

Additional observations from a re-analysis of the deposited data

How the results depend on the processing

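The median of the 87 genes against baseline kept its sign. That of the 7 *Ndufaf* genes did not, reaching 0.06 with vehicle without baseline replicate 2 and -0.03 with NSC under the replicate block with GC correction. *Cox6b2* rests on 7 to 15 counts per baseline library, and its vehicle call was lost in 11 of 21 alternatives. With vehicle, the count of genes that fell was 14, and became 25 with DESeq2 (13.8% of all genes), 30 with the exact test (15.2%), 31 after correction for gene length (17.0%), 32 with only the 2 groups compared (14.1%), 34 after GC correction (17.1%), 36 with the replicate block and GC correction (17.3%), 3 at an adjusted p under 0.01, 0 with a log2 fold change past 1.5, and 4 to 29 with 1 library left out. The gene that rose was lost (0) with all genes of at least 1 count, with at least 10 counts in every library, at 0.01, with the replicate block with or without GC correction, and in fits without 1 library (0 to 1). The median of -0.35 was -0.44 after GC correction, with or without the block, while that of all genes moved to -0.10. With NSC, the 26 that fell became 15 with library size only, which shifted the median of all genes to 0.15, 8 at 0.01, 0 past that log2 fold change and 10 to 46 with 1 library left out. The 4 that rose became 1 after GC correction, 2 with the block and GC correction, 1 at 0.01 or past that log2 fold change, and 1 to 3 with 1 library left out. Between NSC and vehicle, DESeq2 called 1 gene higher, fits without 1 library 0 to 2, and the median of 0.07 ranged from -0.16 (without NSC replicate 3, reversed) to 0.19. The numbers do not pair the samples by the labels. The replicate block alone gave 13 and 28 genes that fell, and lost *Cox6b2* and *Ndufv1* with vehicle. Over the alternatives, for named genes that were called or among the 3 largest changes of a comparison, 576 values kept their call or lack of one. Of the rest, 162 lost a call, 5 gained it and 0 reversed. Most genes named as not called were left out, so gains are undercounted. Correction for GC content, for example, gave *Cox5a*, *Cox5b*, *Ndufs1* and *Uqcrc2* a call in both comparisons with baseline. The cause was not tested.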
